A study of Mus musculus with 16 samples.

Results

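The genes described here are 33 components of the phosphoinositide 3-kinase (PI3K) and AKT pathway, measured by RNA sequencing in BCR-ABL1p185+ mouse cell lines with and without Cdk8. They were chosen by name, as subunits, phosphatases, kinases, receptors and substrates of the pathway, and they make up 33 of the 50686 gene identifiers in the count tables. All 33 were found. They fall into 7 role classes, which are the class I catalytic subunits, the class II catalytic subunits, the regulatory and adaptor genes, the lipid phosphatases, the kinases with the AKT phosphatases, the receptors with their docking proteins, and the AKT substrates.

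PI3K is a lipid kinase at the inner face of the plasma membrane. Growth factor receptors, cytokine receptors and the B-cell receptor recruit it through docking proteins, and its product PIP3 draws the kinases PDK1 and AKT to the membrane, where AKT is activated. Lipid phosphatases remove PIP3 or its breakdown product. AKT phosphorylates the GSK3 kinases, the FOXO transcription factors and the cell death protein BAD, and it holds all of them in check. In cells transformed by BCR-ABL1 the pathway is known for carrying survival signals from the oncogenic kinase, and in B-lineage cells the δ catalytic subunit is the form best known for this work.

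The cells were lymphoid lines that grew out of C57BL/6N bone marrow after transformation with BCR-ABL1p185, an oncogene that every group carries. Of the 8 lines, 4 were labelled wildtype (the study's methods give their genotype as Cdk8 fl/fl) and 4 were Cdk8Δ/Δ, in which Vav-Cre deletes Cdk8 throughout the blood system. Each line was cultured for 48 h with 0.01% DMSO or with 1 µM Senexin B, an inhibitor of the kinases CDK8 and CDK19. This gave 16 libraries in 4 groups of 4, namely wild-type DMSO, wild-type Senexin B, Cdk8Δ/Δ DMSO and Cdk8Δ/Δ Senexin B.

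Library totals, as reads assigned to genes, lay between 13145876 and 18349425, and values are given as counts per 1000000 reads (CPM) after TMM scaling, edgeR's correction of library size. Cdk8 stood at 64.8 ± 3.03 CPM (SD, n = 4) in wild-type DMSO and 44.3 ± 7.09 CPM in Cdk8Δ/Δ DMSO, and the lines did not overlap (exact permutation test, two-sided, p = 0.0286, which is the smallest value 4 against 4 can give). With Senexin B the levels were 64.3 ± 16.6 and 47.4 ± 9.59 CPM and overlapped (exact permutation test, p = 0.114). The counts run over the whole gene, so exons outside the deleted part are included and the residual level does not check the deletion by itself. Of 13 pro-B and pre-B cell markers, 12 were above 1 CPM in every library, and the lowest value, 0.863 CPM, was that of Dntt. Of the 9 myeloid markers 3 were at 0 in all libraries (Elane, S100a8 and S100a9), and the summed myeloid level ran from 0.440 to 24.7 CPM. The T cell, megakaryocyte and stromal sums did not exceed 2.45 CPM in any library. Klrb1c of the NK cell list reached 81.3 CPM and Hbb-bt of the erythroid list reached 263 CPM, while Ncr1 was at 0 and Hba-a1 at or under 0.0735 CPM. In all 4 groups the ranges of these marker sums overlapped, and their part in the results was not tested.

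One library stood apart from the others by gene length. Across 14164 genes, the Senexin B library of wild-type line 2 differed from the DMSO library of the same line by a median of 0.33 on the log2 scale for genes with up to 2 kb of exon and by -0.31 for genes over 8 kb. In the other 7 lines these medians lay between -0.11 and 0.00 for the shorter genes and between -0.06 and 0.10 for the longer ones. The Spearman correlation of change and exon length across genes, which are not independent of each other, was -0.36 in wild-type line 2 and between -0.01 and 0.12 elsewhere. That library also had the lowest total count, 13145876. The pathway genes are long, with a median of 7131 bp of exon against 3594 bp over all tested genes, and 21 of the 33 exceed 6 kb. Most fold changes and medians that rest on that library are therefore given also without it or without wild-type line 2.

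**Figure D1:**
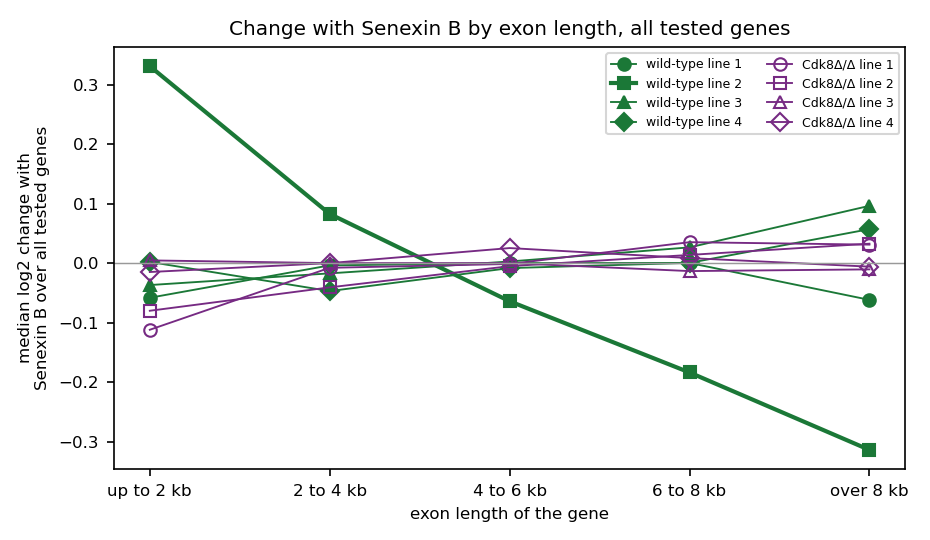
Median log2 difference between the Senexin B and DMSO libraries of each line (vertical axis), over all tested genes grouped by exon length (horizontal axis). Green lines with filled symbols are wild-type lines and violet lines with open symbols are Cdk8Δ/Δ lines. Wild-type line 2 (thick green, squares) descends from 0.33 to -0.31, and the other 7 lines stay between -0.11 and 0.10.

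The class I catalytic subunits were led by Pik3cd, which encodes p110δ, the leukocyte form. The lines in wild-type DMSO had 1080, 1272, 1036 and 1439 CPM of Pik3cd, and those in Cdk8Δ/Δ DMSO 972, 763, 1320 and 1297 CPM. The groups overlapped. RNA from whole cultures cannot tell fewer cells of a kind from less RNA per cell. Per kilobase of exon length, which allows genes to be compared, Pik3cd stood at 199.7 ± 44.9 CPM (SD over 16 libraries), above 98.9% of the 14164 tested genes. Pik3cg, whose product p110γ works downstream of G protein-coupled receptors, followed with 30.8 ± 11.4 CPM per kilobase, and Pik3ca (p110α) with 10.6 ± 1.11. Pik3cb (p110β) was near the limit of detection, at 0.0750 ± 0.0774 CPM per kilobase and between 0 and 29 counts per library. Pik3cd made up between 73.4% and 87.8% of the summed class I level per kilobase, and no library put another class I gene first. The class II catalytic genes Pik3c2b and Pik3c2a, whose products serve membrane traffic, had 8.45 ± 2.53 and 5.81 ± 1.12 CPM per kilobase.

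Among the regulatory and adaptor genes, Pik3ap1, which encodes the B-cell adaptor BCAP, was highest with 49.1 ± 17.5 CPM per kilobase (SD over 16 libraries). Pik3r2 (p85β) and Pik3r1 (p85α) stabilise the class IA catalytic subunits and lay at 13.3 ± 3.18 and 8.64 ± 1.80 CPM per kilobase. The third class IA gene, Pik3r3, was the lowest of the class at 0.677 ± 0.439. Of the pair that serves p110γ, Pik3r6 had 8.86 ± 3.45 and Pik3r5 had 1.72 ± 0.833 CPM per kilobase. Pik3ip1, which encodes a membrane protein that inhibits PI3K, stood at 11.1 ± 4.53.

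Of the lipid phosphatases, Inpp5d (SHIP1) and Inppl1 (SHIP2), which take the 5-phosphate from PIP3, were the highest, with 131 ± 52.8 and 59.4 ± 31.8 CPM per kilobase. Inpp5d lay above 98.0% of tested genes. Inpp4b and Inpp4a, which act on the next lipid in the chain, had 5.95 ± 2.62 and 0.457 ± 0.220. The share of Inppl1 in the summed SHIP level ranged from 18.5% in the Cdk8Δ/Δ DMSO library of line 1 to 49.2% in the wild-type Senexin B library of line 2.

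Akt1 had 44.7 ± 11.7 CPM per kilobase and Akt2 3.64 ± 0.549, so that Akt1 made up between 88.2% and 94.5% of the sum of both. Pdpk1, which encodes the AKT-activating kinase PDK1, stood at 14.0 ± 2.73, and the AKT phosphatases Phlpp1 and Phlpp2 at 8.07 ± 1.98 and 1.90 ± 0.223. Tcl1, the AKT coactivator known as a T-cell and B-cell oncogene, had 0 counts among the 247642623 reads of the 16 libraries. A count of 0 allows up to 3 counts, or 0.228 CPM in the library with the lowest total, and it covers counting error only.

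The receptors and their docking proteins were low by comparison. The insulin receptor gene Insr had 3.88 ± 0.830 CPM per kilobase, and Igf1r, the gene of the related growth factor receptor, had 0.0911 ± 0.112. Of the docking proteins, Irs2 was highest at 9.75 ± 2.60, Gab1 had 7.31 ± 3.10 and Irs1 1.83 ± 2.78. Among the AKT substrates Gsk3a was highest at 40.5 ± 7.19, followed by Gsk3b at 16.1 ± 3.17, Foxo3 at 9.16 ± 2.31, Bad at 6.53 ± 1.86 and Foxo4 at 5.18 ± 1.36 CPM per kilobase. Reads were counted without regard to strand, and 25.8% of the exon bases of Bad lie in Gpr137 on the other strand, as do 28.3% of those of Gsk3a in 9130221H12Rik, 18.8% of those of Inppl1 in Gm10602, 12.3% of those of Pik3c2a in Gm44777 and 30.9% of those of Irs1 in Gm9747. Pik3r3 shares 24.3% of its exon bases with Gm49337 on its own strand. Gm9747 and Gm49337 had 0 counts in all libraries. Where reads from such stretches were assigned cannot be told from the tables.

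**Figure D2:**
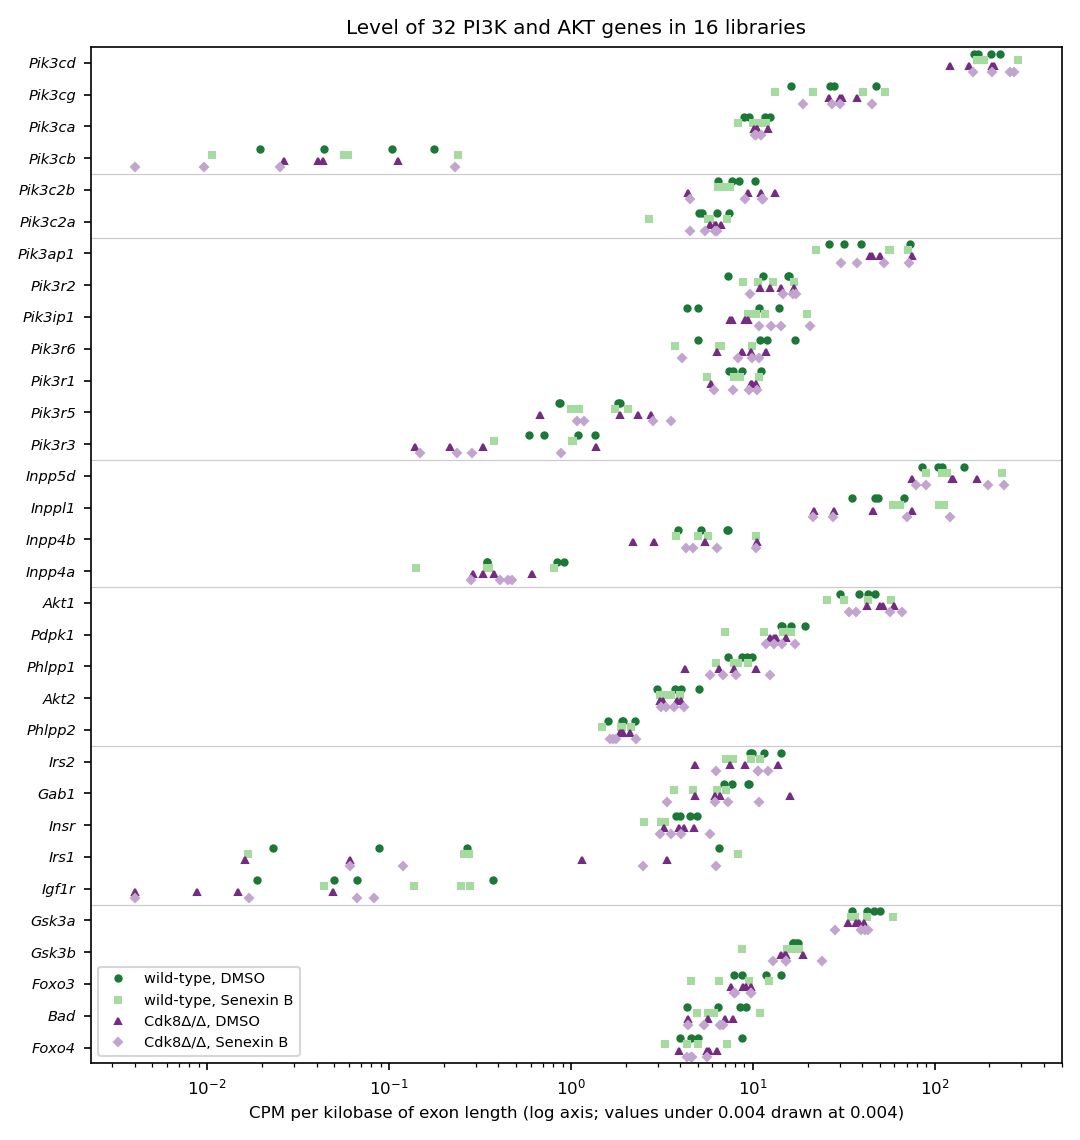
Level of each gene in the 16 libraries, in CPM per kilobase of exon length (horizontal log axis, with values under 0.004 drawn at 0.004), with 1 symbol per library and 1 colour per group. Grey lines divide the role classes, and Tcl1, with 0 counts, is left out. Pik3cd, between 122 and 286, is highest, and Pik3cb and Igf1r, at most 0.240 and 0.375, are lowest.

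The lines differed most in Irs1, the insulin receptor substrate best known from muscle and fat. In DMSO, wild-type lines 1 to 4 had 59.5, 2.45, 0.803 and 0.210 CPM of Irs1, and Cdk8Δ/Δ lines 1 to 4 had 0.561, 30.8, 10.5 and 0.147 CPM. Wild-type line 1 and Cdk8Δ/Δ lines 2 and 3 were thus the high ones, in both genotypes, and the same lines were high with Senexin B, at 75.5, 57.5 and 22.7 CPM. The pooled SD between lines of Irs1 was 3.23 on the log2 scale, above 99.6% of tested genes. Irs2 in comparison had a pooled SD of 0.42. At the other end, the pooled SD was 0.17 for Pik3ca, 0.19 for Phlpp2 and 0.22 for Akt2, at most the 13.1 percentile of tested genes. Over the 32 genes that were detected, the median of the pooled SD was 0.42, against 0.41 over all 14164 tested genes.

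**Figure D3:**
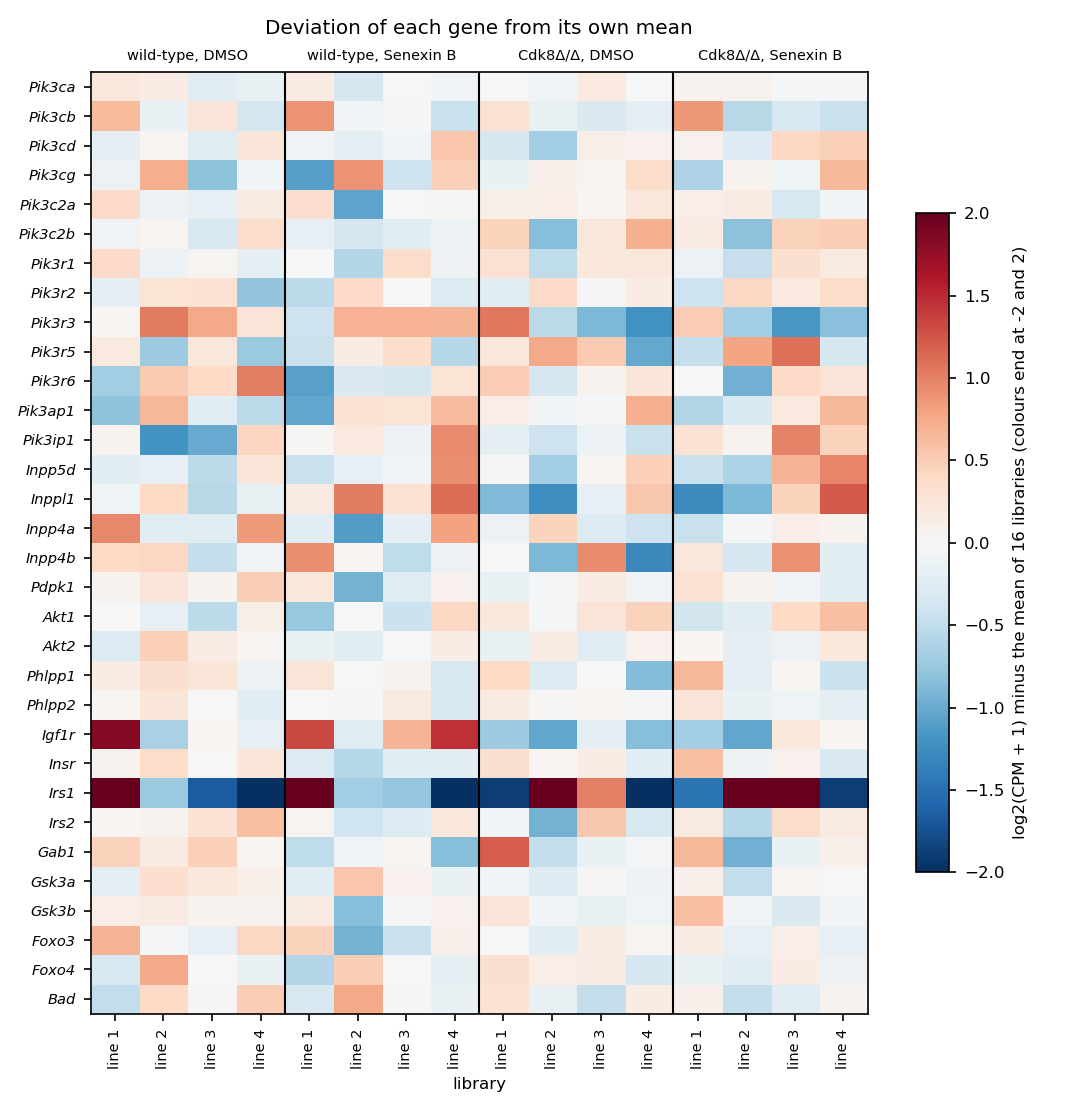
Deviation of each gene's log2(CPM + 1) from its own mean over 16 libraries, with red above and blue below the mean and colours ending at -2 and 2. Columns are lines 1 to 4 of each of the 4 groups. Irs1 is red in wild-type line 1 and Cdk8Δ/Δ lines 2 and 3 under both treatments, and the wild-type Senexin B library of line 2 is blue for the long genes Pik3c2a, Pdpk1, Gsk3b and Foxo3.

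The first comparison, Cdk8Δ/Δ against wild-type lines in DMSO, asks what the loss of CDK8 does to the pathway's transcripts. Of the 33 genes, 31 passed the filter on low counts (Pik3cb and Tcl1 did not), and 0 of them were called at an adjusted p under 0.05 and a fold over 2 in edgeR's quasi-likelihood test. Over all 13174 genes tested, 0.00759% were called. DESeq2 also called 0 of the 33. At an unadjusted p under 0.05 there was 1 gene, Igf1r, of 31, against 5.32% of all genes tested, and DESeq2 gave the same count.

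Igf1r counts were low throughout. The wild-type DMSO lines had 6.29, 0.314, 1.12 and 0.839 CPM, and the Cdk8Δ/Δ DMSO lines had 0.249, 0, 0.824 and 0.147 CPM. Wild-type line 1 was far above the other lines, and the groups overlapped. The log2 fold change of Igf1r was -2.77 (SE 1.15, adjusted p = 0.897 in edgeR's quasi-likelihood test). Over the alternatives it ran from -3.95 to -1.29. The value nearest 0 came without wild-type line 1, and the unadjusted p was above 0.05 without that line or without Cdk8Δ/Δ line 1, line 2 or line 4.

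The largest positive difference was that of Pik3r5, the p101 partner of p110γ. Its levels were 10.0, 4.84, 10.3 and 4.76 CPM in the wild-type DMSO lines and 10.3, 15.3, 12.9 and 3.75 CPM in the Cdk8Δ/Δ DMSO lines. The groups overlapped, and the log2 fold change was 0.50 (SE 0.46, edgeR adjusted p = 0.916). Akt1, which makes up most of the AKT level in these cells, had 177, 157, 123 and 192 CPM in wild-type and 205, 175, 213 and 244 CPM in Cdk8Δ/Δ DMSO lines, a log2 fold change of 0.37 (SE 0.16, edgeR adjusted p = 0.897). The level of Akt1 in Cdk8Δ/Δ line 2 lay below those of wild-type lines 1 and 4, so here too the groups overlapped.

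Over the 31 genes, 12 were higher and 19 lower in Cdk8Δ/Δ DMSO lines, with a median log2 fold change of -0.11 and a mean of -0.18. The median over all tested genes was 0.00. Of the 31, 0 separated the genotypes without overlap, while 3.14% of all tested genes did.

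With Senexin B in both genotypes, 0 of 31 genes were called, 0% of all 13010 genes tested were called, and DESeq2 called 0 as well. At an unadjusted p under 0.05 edgeR had 0 of the 31, against 1.55% of all genes, and DESeq2 had 1 (Igf1r). Igf1r stood at 4.17, 0.736, 2.30 and 4.69 CPM in wild-type and at 0.287, 0, 1.39 and 1.11 CPM in Cdk8Δ/Δ lines. Its log2 fold change was -2.07 (SE 0.95, edgeR adjusted p = 1.00), and the unadjusted p was under 0.05 without wild-type line 2 or without Cdk8Δ/Δ line 3. The log2 fold change of Igf1r was -2.39 without wild-type line 2. Pik3r5, again the largest positive difference, had a log2 fold change of 0.55 (SE 0.46, edgeR adjusted p = 1.00), or 0.64 without wild-type line 2. Of the 31 genes 21 were higher and 10 lower, with a median of 0.07 and a mean of -0.01. The median and the mean thus differ in sign. The median was 0.015 without the wild-type Senexin B library of line 2. Of the 31, 0 separated the genotypes, against 0.999% of all genes.

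In wild-type lines, the comparison of Senexin B with DMSO asks what blocking the kinase does when the CDK8 protein is present. Of 31 genes tested, 0 were called by edgeR or by DESeq2, and 0% of all 12989 genes were called by edgeR. At an unadjusted p under 0.05 there were 3 genes, Insr, Inppl1 and Gab1, against 3.8% of all genes, and DESeq2 had 3 as well. Libraries of 1 line deviated together from their group means, so the replicate number pairs them. With it as a block, edgeR had 6 genes at an unadjusted p under 0.05, against 10.3% of all genes. Those were Pik3r6, Inppl1, Gab1, Pik3ip1, Insr and Foxo3. Again 0 of the 31 were called, while 0.346% of all genes were.

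Insr was lower with Senexin B in every wild-type line. It stood at 55.0, 67.9, 52.3 and 61.7 CPM in DMSO and at 42.9, 34.7, 45.1 and 44.7 CPM with Senexin B, and it was the 1 gene of 31 whose groups did not overlap, against 2.16% of all genes. The log2 fold change was -0.49 (SE 0.16, edgeR adjusted p = 1.00), and with the block it was -0.49 (SE 0.17, edgeR adjusted p = 0.347). Over the blocked alternatives the adjusted p of Insr lay between 0.107 and 0.808. The gene has 13746 bp of exon. Without wild-type line 2 the log2 fold change of Insr was -0.34, or -0.33 with the block, and the unadjusted p was above 0.05 in both fits. With all lines and a trend for exon length in the model it was -0.44, or -0.43 with the block. The unadjusted p was under 0.05 in both of these fits.

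Inppl1 was higher with Senexin B in every wild-type line, and it was the 1 gene of 31 with that pattern, against 8.38% of all genes. It had 311, 435, 224 and 299 CPM in DMSO and 376, 678, 409.9 and 722 CPM with Senexin B. Wild-type lines 2 and 4 with Senexin B were far above the rest, and the groups overlapped. For Inppl1 this gave a log2 fold change of 0.80 (SE 0.28, edgeR adjusted p = 1.00), and 0.78 with the block (SE 0.19, edgeR adjusted p = 0.192, between 0.0136 and 0.778 over the blocked alternatives). Without wild-type line 2 it was 0.87, or 0.82 with the block. The unadjusted p was above 0.05 without the Senexin B library of line 2 or line 4 or the DMSO library of line 3. With all 16 libraries in one fit it was 0.143 in edgeR's quasi-likelihood test.

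Gab1, a docking protein that binds the phosphatase SHP2 and PI3K, was lower in all 4 lines. It had 48.0, 39.3, 48.2 and 35.5 CPM in DMSO and 23.9, 32.4, 36.0 and 18.7 CPM with Senexin B. The groups overlapped by a small margin, between 35.5 and 36.0 CPM. Gab1 had a log2 fold change of -0.61 (SE 0.23, edgeR adjusted p = 1.00), and of -0.64 with the block (SE 0.18, edgeR adjusted p = 0.237, between 0.0965 and 0.705 over the blocked alternatives). Without wild-type line 2 it was -0.73, or -0.77 with the block. The unadjusted p was above 0.05 without either library of line 1, the DMSO library of line 3 or the Senexin B library of line 4. With all 16 libraries in one fit it was 0.124 in edgeR's quasi-likelihood test.

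Pik3r6, which encodes the p84 partner of p110γ, was the largest negative difference. Its levels were 18.1, 43.5, 39.7 and 61.7 CPM in DMSO and 13.5, 24.2, 23.5 and 36.1 CPM with Senexin B. Each line was lower, with log2 differences between -0.84 and -0.41, but the lines lay so far apart that the groups overlapped. Its log2 fold change was -0.73 (SE 0.39, edgeR adjusted p = 1.00) without the block and -0.69 (SE 0.15, edgeR adjusted p = 0.134) with it. Without wild-type line 2 these values were -0.70 and -0.64. Insr, Gab1, Pik3r6 and Foxo3 were the 4 genes of 31 that were lower in all 4 wild-type lines, against 9.46% of all genes. Foxo3, a FOXO factor that AKT keeps out of the nucleus, had 108, 66.4, 60.0 and 89.6 CPM in DMSO and 92.7, 34.5, 49.2 and 72.3 CPM with Senexin B. Its log2 fold change with the block was -0.43 (SE 0.17, edgeR adjusted p = 0.429, between 0.128 and 0.942 over the blocked alternatives). The difference was largest in line 2, at -0.94 against -0.31 to -0.22 in the others. Without the block the log2 fold change of Foxo3 was -0.37 (SE 0.32, edgeR adjusted p = 1.00). Without line 2 it was -0.26 with or without the block, and the unadjusted p was above 0.05 in both fits.

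The number of genes past the limits depended on which lines entered the blocked fit. Without wild-type line 1, edgeR with the block had 10 of the 31 at an unadjusted p under 0.05, against 22% of all genes, and 4 of them (Pik3r6, Inppl1, Pik3ip1 and Igf1r) had an adjusted p under 0.05. Of these, Igf1r also passed the fold limit, with a log2 fold change of 1.63 and an adjusted p of 0.0303. In that fit 538 of 12976 genes (4.15%) were called, against 45 of 12989 with all lines. The adjusted p of Pik3r6 was 0.0117 without line 1 and 0.702 without line 3, the lowest and the highest of its blocked alternatives. Without wild-type line 2, 3 of 32 genes had an unadjusted p under 0.05 with the block (Gab1, Pik3r6 and Inppl1), against 7.21% of all genes, and 0% of all genes were called.

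In Cdk8Δ/Δ lines the same treatment asks what Senexin B does when CDK8 is missing and CDK19, the other kinase it inhibits, is not deleted. Of 30 genes tested (Igf1r, Pik3cb and Tcl1 did not pass the filter), 0 were called by edgeR or DESeq2, and 0% of all 13285 genes were called by edgeR. At an unadjusted p under 0.05 there was 1 gene, Pik3ip1, with either tool, against 1.83% of all genes in edgeR. With the replicate block there were 4 (Irs1, Pik3ip1, Pik3cd and Inpp4b), against 10.3% of all genes. With the block 0 of the 30 were called, and 0.0527% of all genes were.

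Pik3ip1 was higher with Senexin B in every Cdk8Δ/Δ line. It had 38.6, 32.8, 40.3 and 31.8 CPM in DMSO and 53.9, 46.1, 88.4 and 60.7 CPM with Senexin B. The groups did not overlap, and Pik3ip1 was the 1 gene of 30 for which this held, against 1.66% of all genes. The log2 fold change was 0.79 (SE 0.21, edgeR adjusted p = 1.00), and with the block it was 0.76 (SE 0.14, edgeR adjusted p = 0.154). Under all 20 alternatives run it kept an unadjusted p under 0.05, with values from 0.58 to 0.91. Over the blocked alternatives the adjusted p of Pik3ip1 lay between 0.0750 and 0.532 in edgeR. In wild-type lines Pik3ip1 had 46.0, 18.7, 21.4 and 59.3 CPM in DMSO and 44.7, 50.1, 40.3 and 85.1 CPM with Senexin B. It was thus higher in 3 of 4 wild-type lines and almost level in line 1. Its log2 fold change there was 0.61 (SE 0.41, edgeR adjusted p = 1.00), and with the block 0.71 (SE 0.23, edgeR adjusted p = 0.330, between 0.0146 and 0.917 over the blocked alternatives). Line 2 had the largest difference, 1.42 on the log2 scale, and without it the log2 fold change was 0.44, or 0.47 with the block, with an unadjusted p above 0.05 in both fits. In all, Pik3ip1 was higher with Senexin B in 7 of 8 lines.

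Irs1 was higher in all 4 Cdk8Δ/Δ lines whatever its starting level. It had 0.561, 30.8, 10.5 and 0.147 CPM in DMSO and 1.09, 57.5, 22.7 and 0.557 CPM with Senexin B. In lines 1 and 4 these values rest on 9 and 2 counts in DMSO and on 19 and 8 counts with Senexin B. Since the lines differ so widely, the log2 fold change of 0.96 had an SE of 1.68 (edgeR adjusted p = 1.00), and with the block it was 1.04 (SE 0.16, edgeR adjusted p = 0.131). Its adjusted p over the blocked alternatives lay between 0.0673 and 0.4198 in edgeR. In wild-type lines Irs1 was higher with Senexin B in 3 of 4, by 0.34, 0.05 and 1.41 on the log2 scale in lines 1 to 3, and at -0.26 in line 4.

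Pik3cd was higher in all 4 Cdk8Δ/Δ lines by between 0.31 and 0.41 on the log2 scale. Its levels went from 972, 763, 1320 and 1297 CPM in DMSO to 1291, 1016, 1633 and 1702 CPM with Senexin B. With the block the log2 fold change was 0.38 (SE 0.099, edgeR adjusted p = 0.268, between 0.256 and 0.621 over the blocked alternatives). In wild-type lines it was 1080, 1272, 1036 and 1439 CPM in DMSO and 1150, 1070, 1170 and 1793 CPM with Senexin B, higher in 3 of 4. Inpp4b, which removes the 4-phosphate from the PIP3 breakdown product, had 71.0, 37.5, 138 and 28.6 CPM in DMSO and 82.8, 56.1, 135 and 61.3 CPM with Senexin B. It was higher in 3 of 4 lines, and its blocked log2 fold change was 0.46 (SE 0.18, edgeR adjusted p = 0.438, between 0.367 and 0.768 over the blocked alternatives). Irs1, Phlpp1, Pik3cd and Pik3ip1 were the 4 genes of 30 that were higher in all 4 Cdk8Δ/Δ lines, against 8.89% of all genes. Of the 30, 0 were lower in all 4, against 10.3% of all genes. Pik3r3 was the largest negative difference, with 7.29, 1.75, 1.14 and 0.735 CPM in DMSO and 4.71, 1.51, 0.788 and 1.25 CPM with Senexin B (log2 fold change -0.40, SE 0.84, edgeR adjusted p = 1.00). Of the 32 detected genes, 0 were higher with Senexin B in all 8 lines and 0 were lower in all 8, while 1.96% and 2.59% of all genes were.

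**Figure D4:**
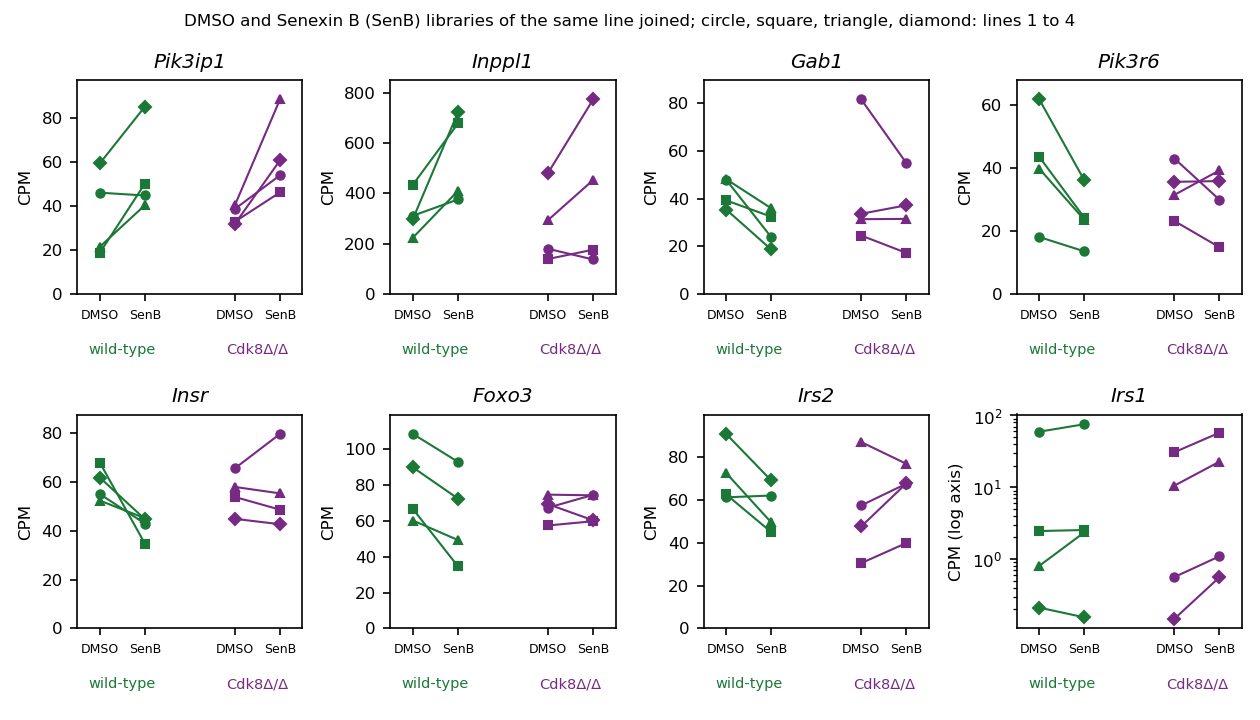
CPM of 8 pathway genes in the DMSO and Senexin B (SenB) libraries, with the 2 libraries of each line joined, wild-type in green and Cdk8Δ/Δ in violet (Irs1 on a log axis). Pik3ip1 is higher with Senexin B in 7 of 8 lines, Inppl1 in 7 of 8 and Irs1 in 7 of 8, and Insr, Gab1, Pik3r6 and Foxo3 are lower in all 4 wild-type lines.

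Start-site windows were searched for a FOXO motif, since FOXO factors lie at the end of the pathway. Those of Pik3ip1, Inppl1 and Gab1 are shown as examples of genes with an unadjusted p under 0.05 and no match, and that of Pik3cg as a window with one. Each runs from 250 bases before to 50 bases after a RefSeq start site (GRCm38.p6), 5′ to 3′ on the gene's strand. Capitals mark TGTTTAC or TATTTAC, the letters searched, on either strand (a match on the other strand reads GTAAACA or GTAAATA). The motifs differ at 1 base and count as 1 kind of match. Pik3ip1 is at chr11:3330481-3330780 (plus strand), Inppl1 at chr7:101837775-101838074 (minus strand), Gab1 at chr8:80880430-80880729 (minus strand) and Pik3cg at chr12:32208421-32208720 (minus strand).
Pik3ip1: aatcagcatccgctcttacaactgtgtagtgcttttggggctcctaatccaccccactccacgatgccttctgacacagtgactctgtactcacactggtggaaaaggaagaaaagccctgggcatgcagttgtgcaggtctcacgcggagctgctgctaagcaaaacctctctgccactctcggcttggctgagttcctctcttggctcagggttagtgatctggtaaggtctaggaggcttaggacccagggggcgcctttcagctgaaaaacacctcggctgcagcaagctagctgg
Inppl1: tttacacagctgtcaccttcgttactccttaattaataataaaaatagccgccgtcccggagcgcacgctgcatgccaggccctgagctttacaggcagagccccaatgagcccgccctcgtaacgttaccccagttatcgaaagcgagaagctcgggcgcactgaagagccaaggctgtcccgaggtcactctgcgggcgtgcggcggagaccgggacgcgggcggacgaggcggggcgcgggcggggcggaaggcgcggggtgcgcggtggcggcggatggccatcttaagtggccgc
Gab1: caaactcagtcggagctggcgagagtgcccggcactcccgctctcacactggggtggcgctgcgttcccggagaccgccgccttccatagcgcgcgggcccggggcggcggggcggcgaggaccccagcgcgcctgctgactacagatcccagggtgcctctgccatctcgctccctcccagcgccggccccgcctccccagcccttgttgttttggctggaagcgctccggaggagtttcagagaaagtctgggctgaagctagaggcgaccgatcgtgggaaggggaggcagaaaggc
Pik3cg: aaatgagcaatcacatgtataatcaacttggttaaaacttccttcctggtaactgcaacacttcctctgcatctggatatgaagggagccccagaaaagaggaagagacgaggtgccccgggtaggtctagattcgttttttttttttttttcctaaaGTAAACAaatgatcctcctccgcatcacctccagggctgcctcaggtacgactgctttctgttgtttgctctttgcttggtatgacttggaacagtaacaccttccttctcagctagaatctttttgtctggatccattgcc
The windows of Pik3ip1, Inppl1 and Gab1 hold no such letters. The motif is at position -92 from the start site in Pik3cg, a gene with no difference at an unadjusted p under 0.05 in any comparison of the unblocked fits. Of 46 windows that belong to 30 of the 33 genes, 3 hold a match (Pik3cg, Akt1 and Akt2), and of all 32851 windows in the reference 6.54% do. The median GC content was 63.2% in the windows of the pathway genes and 52.7% in all windows.

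Whether Senexin B acted differently in the 2 genotypes was tested as an interaction over all 16 libraries. Of 32 genes tested, 0 were called by edgeR or DESeq2, as were 0% of all 14164 genes by edgeR. Both tools had 0 of the 32 at an unadjusted p under 0.05, against 0.473% of all genes in edgeR. With the replicate block there were 3 genes (Irs2, Insr and Foxo3), against 3.24% of all genes, and again 0 of 32 and 0% of all genes were called. The interaction is the change in Cdk8Δ/Δ lines minus that in wild-type lines, and it was positive for all 3. Without the block, 23 of the 32 values were positive and 9 negative, with a median of 0.17 against -0.00 over all genes. With the block 22 were positive and 10 negative, and the median was 0.081, or 0.11 without wild-type line 2. Without the block the median was 0.098 when the wild-type DMSO library of line 1 was left out and 0.15 without wild-type line 2. The group was chosen with opposite mean changes in the genotypes known. These counts, signs and medians, and the unadjusted p-values of single genes for the interaction, are therefore a description and carry no test of the group.

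Irs2, a docking protein of the insulin receptor, had between 50.02% and 99.8% of the summed Irs1 and Irs2 level per kilobase. Its change with Senexin B was 0.02, -0.47, -0.55 and -0.39 on the log2 scale in wild-type lines 1 to 4 and 0.23, 0.38, -0.18 and 0.51 in Cdk8Δ/Δ lines 1 to 4. The interaction with the block was 0.59 (SE 0.20, edgeR adjusted p = 0.991, between 0.995 and 1.00 in the other blocked fits). Without wild-type line 2 it was 0.54, with an unadjusted p under 0.05. For Insr the changes were -0.36, -0.96, -0.21 and -0.46 in wild-type and 0.28, -0.15, -0.07 and -0.07 in Cdk8Δ/Δ lines, an interaction of 0.50 with the block (SE 0.19, edgeR adjusted p = 0.991). Foxo3 changed by -0.22, -0.94, -0.29 and -0.31 in wild-type and by 0.14, 0.06, -0.01 and -0.20 in Cdk8Δ/Δ lines, an interaction of 0.44 (SE 0.19, edgeR adjusted p = 0.991). Without wild-type line 2 the blocked interaction was 0.34 for Insr and 0.27 for Foxo3, and neither had an unadjusted p under 0.05. Igf1r and Pik3ap1 had the largest differences without the block, 0.70 (SE 1.56) and -0.43 (SE 0.54). Without wild-type line 2 these were 0.74 and -0.77.

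As a group, the genes had means of opposite sign in the wild-type and the Cdk8Δ/Δ lines with Senexin B. The mean log2 fold change was -0.047 over 31 genes in wild-type and 0.078 over 30 genes in Cdk8Δ/Δ lines. The sets differ by Igf1r, which did not pass the filter in Cdk8Δ/Δ lines. Irs1 was the highest value in the Cdk8Δ/Δ mean, at 0.96 (SE 1.68). The medians were -0.048 and 0.012, beside 0.019 and 0.0070 over all tested genes. By line, the median over 32 genes was -0.08, -0.30, 0.02 and -0.05 in wild-type lines 1 to 4 and 0.04, 0.01, 0.07 and 0.14 in Cdk8Δ/Δ lines 1 to 4. Wild-type line 2 was the lowest. Without it the wild-type mean was 0.0029 and the median -0.0043, so that the mean no longer had the opposite sign. With a trend for exon length in the model the means were -0.023 and 0.068. The group was chosen with this contrast between the genotypes known, and these means carry no test.

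**Figure D5:**
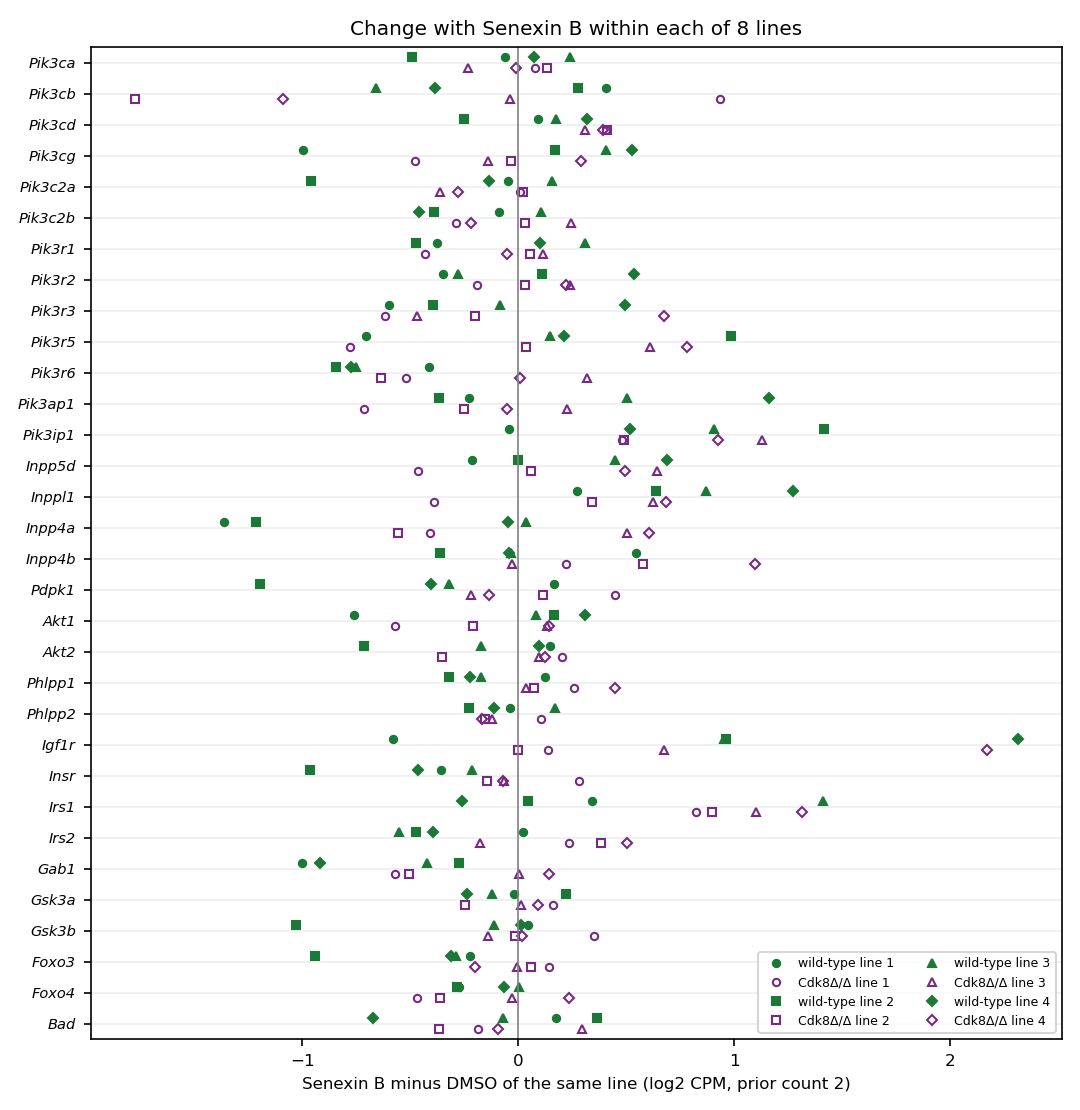
Difference between the Senexin B and DMSO library of each line on the log2 CPM scale (horizontal axis) for each gene with counts, with wild-type lines as filled green symbols and Cdk8Δ/Δ lines as open violet symbols. Insr, Gab1, Foxo3 and Pik3r6 lie left of 0 in all 4 wild-type lines, and Pik3cd, Pik3ip1, Irs1 and Phlpp1 lie right of 0 in all 4 Cdk8Δ/Δ lines.

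Genes around the pathway were looked at in 4 further lists, chosen with earlier results of these data known. The counts in them are a description. Of 24 B-lineage and cytokine receptor inputs, 23 were tested and 0 had an unadjusted p under 0.05 between genotypes in DMSO. The smallest p was that of Il2rg, the common γ chain gene, with 96.3, 217, 136 and 119 CPM in wild-type and 123, 80.3, 95.9 and 71.6 CPM in Cdk8Δ/Δ lines (log2 fold change -0.61, SE 0.27, edgeR adjusted p = 0.897). With Senexin B in wild-type lines and the block, 1 gene of this list was called, Csf2rb, the β chain of cytokine receptors that feed PI3K, named here after its value was seen. It had 114, 222, 145 and 179 CPM in DMSO and 68.2, 73.4, 69.6 and 71.6 CPM with Senexin B, with no overlap (log2 fold change -1.17, SE 0.17, edgeR adjusted p = 0.0374). Without the block it was -1.21 (SE 0.20, edgeR adjusted p = 0.487), and 0 were called. Without wild-type line 2 the blocked fit called 0% of all genes, so Csf2rb was not called there. In the blocked fit with all wild-type lines 0.346% of all genes were called and 10.3% had an unadjusted p under 0.05. Of the 23 inputs 5 had such a p, and all 5 (Csf2rb, Flt3, Grb10, Lyn and Gab2) were lower with Senexin B. In Cdk8Δ/Δ lines with the block there were also 5 of 23, against 10.3% of all genes, with 4 lower and 1 higher (Lyn, Grb10, Cd79b, Csf2rb and Ptpn11), and 0 were called. For the interaction with the block there were 3 of 24 (Gab2, Kit and Cblb), against 3.24% of all genes. Without the block 1 input was lower in wild-type lines (Csf2rb) and 1 in Cdk8Δ/Δ lines (Lyn), 1 was higher between genotypes with Senexin B (Csf2rb), and 0 had an interaction, each at an unadjusted p under 0.05. The shares of all genes at that limit were 3.8%, 1.83%, 1.55% and 0.473%, in the same order.

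Of 19 other phosphoinositide kinases and phosphatases, 17 were tested and 2 had an unadjusted p under 0.05 between genotypes in DMSO, against 5.32% of all genes, 1 higher (Inpp5k) and 1 lower (Pip4k2c), and 0 in the other 4 comparisons. With the block there were 0 with Senexin B in either genotype and 1 for the interaction (Pip4k2c), against 3.24% of all genes for the interaction. Pip4k2c, with the smallest p, had 39.1, 46.0, 27.8 and 41.6 CPM in wild-type and 24.5, 24.5, 30.0 and 25.7 CPM in Cdk8Δ/Δ lines (log2 fold change -0.56, SE 0.17, edgeR adjusted p = 0.897). Of 18 AKT partners and relatives, 3 were higher in Cdk8Δ/Δ DMSO lines at an unadjusted p under 0.05 (Trib1, Cdc37 and Hsp90aa1) and 0 lower, against 5.32% of all genes in either direction. With Senexin B 1 was higher (Phlda1) and 1 lower (Sgk3) in wild-type lines, against 3.8% of all genes. In the other 3 comparisons 0 passed. With the block there were 3 in wild-type lines (Sgk3, Trib3 and Phlda1) and 1 in Cdk8Δ/Δ lines (Sgk3), against 10.3% of all genes in each. For the interaction with the block there was 1 (Trib3), against 3.24% of all genes. Trib1, with the smallest p, had 26.4, 27.2, 40.8 and 8.53 CPM in wild-type and 67.9, 83.3, 73.8 and 32.4 CPM in Cdk8Δ/Δ lines (log2 fold change 1.32, SE 0.46, edgeR adjusted p = 0.897). The groups overlapped.

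Of 22 genes known as FOXO targets, 21 were tested and 3 had an unadjusted p under 0.05 between genotypes in DMSO, against 5.32% of all genes, 2 higher (Rag1 and Rag2) and 1 lower (Bcl6). Since this list was chosen with earlier results known, its counts carry no test of FOXO targets as a group. Rag1, which encodes the recombinase of B-cell development, had 2.60, 2.77, 3.86 and 1.61 CPM in wild-type and 17.8, 9.26, 77.8 and 18.9 CPM in Cdk8Δ/Δ DMSO lines. All Cdk8Δ/Δ lines were above all wild-type lines, and the log2 fold change was 3.51 (SE 0.70, edgeR adjusted p = 0.897). The median over the 21 tested was 0.10. Between genotypes with Senexin B 2 were higher (Rag1 and Rag2), against 1.55% of all genes. With Senexin B 1 was lower in wild-type lines (Sesn3), against 3.8% of all genes. In Cdk8Δ/Δ lines 1 was higher (Bcl6) and 1 lower (Sesn3), against 1.83% of all genes, and 0 had an interaction. With the block 2 had an interaction (Cdkn1b and Sesn3), against 3.24% of all genes. None of the 4 lists had a gene past both limits in any of the 5 comparisons without the block.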

How the data were processed

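RNA of 8 mouse cell lines under 2 treatments was sequenced as 50 bp single-end libraries made with a Lexogen SENSE mRNA kit. Per the labels and file headers, the authors used Trimmomatic for trimming, STAR for alignment to GRCm38 and featureCounts 1.5.1 for gene counts on GENCODE vM13, with no strand setting. The deposited values are these raw counts, not normalized. Of 50686 identifiers 50376 had a gene symbol, and 29942 had any count.

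Groups came from the labels, 4 libraries each. Replicate numbers were read as line numbers. DMSO and Senexin B libraries with the same number and genotype correlated at r = 0.586 to 0.870 after removal of group means (8 pairs), so it pairs them. The labels do not say that lines came from separate animals, so p-values measure the spread between these lines. Library totals ran from 13145876 to 18349425 counts. No 2 libraries were copies of each other (chi-square per gene of at least 22.6 over 120 pairs).

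Counts were fitted in R 4.3.3 with edgeR 4.0.16 (TMM, filterByExpr, robust quasi-likelihood test, Benjamini-Hochberg adjustment over all genes tested), using the 8 libraries compared or all 16 for the interaction. A call needed an adjusted p under 0.05 and a fold over 2. The script was tested on simulated data. Changes within a line use log2 CPM with a prior count of 2. Levels per length are CPM divided by the exon length in the count tables. Alternatives were DESeq2 1.42.0, RLE size factors, no filter, at least 10 counts in every library, all 16 libraries in one fit, the replicate block, an adjusted p under 0.1, no fold limit and leaving out each library. A length trend, leaving out wild-type line 2 and leaving out each line under the block were chosen after seeing the data.

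The genes and the 4 further lists were chosen with earlier results of these data known. Named were genes at an unadjusted p under 0.05, those with the largest difference in each direction, the highest and lowest per length in each class, genes at an unadjusted p under 0.05 under the block, and in each further list the gene with the smallest p between genotypes in DMSO. The blocked Senexin B counts of the FOXO target list within each genotype are not reported here.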

Additional observations from a re-analysis of the deposited data

Results flagged for a closer look

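The 32 genes with counts were examined for a library far from the other 3 of its group, in 128 groups of 4, where chance alone marks about 1 in 20. The gap to the nearest library, divided by the range of the group, exceeded Dixon's critical value at the 95% level in 2 cases. Pik3r1 in the Cdk8Δ/Δ DMSO library of line 2 stood at 59.6 CPM, with 105, 98.7 and 100.2 CPM in lines 1, 3 and 4. The Senexin B library of the same line had 61.9 CPM. Pik3r3 in the wild-type Senexin B library of line 1 stood at 2.01 CPM, with 5.48, 5.45 and 5.38 CPM in lines 2 to 4, and the DMSO library of that line had 3.12 CPM.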

How the results depend on the processing

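Without the block, no gene of the pathway was called in any of the 5 comparisons under any alternative run, including an adjusted p under 0.1 and no fold limit. Over all genes edgeR called 1, 0, 0, 0 and 0 in the comparisons in the order of the report, DESeq2 32, 10, 20, 0 and 0, and edgeR with the block 0, 0, 45, 7 and 0; without wild-type line 1, 2, 3 and 4 the 45 became 538, 0, 9 and 28, and without Cdk8Δ/Δ line 1, 2, 3 and 4 the 7 became 31, 0, 2 and 0. The number at an unadjusted p under 0.05 was 1 between genotypes in DMSO (0 to 2 when 1 library was left out, 2 with the replicate block, Igf1r and Akt1, though the lines of the 2 genotypes share only a number). Between genotypes with Senexin B it was 0 (0 to 2 when 1 library was left out, 1 with the replicate block, with DESeq2 and with all 16 libraries in one fit). That 1 gene was Igf1r with the replicate block and with DESeq2. With all 16 libraries in one fit a different gene passed, and Igf1r had an unadjusted p of 0.0855 in edgeR's quasi-likelihood test. In wild-type lines the number was 3 (1 to 4 when 1 library was left out, 1 with all 16 in one fit) and with the replicate block 6, or 6 with the length trend as well, and 10, 5 and 6 without line 1, 3 and 4, with 1 gene called without line 1. Over all genes, 1455 of 12989 passed that limit with the block and the length trend. Without line 1, 3 and 4 these were 2856 of 12976, 707 of 12890 and 826 of 13234. In Cdk8Δ/Δ lines the number was 1 and with the block 4, or 4 with the length trend and 7, 3, 5 and 3 without line 1, 2, 3 and 4. Over all genes, 1337 of 13285 passed with the block and the length trend. Without line 1, 2, 3 and 4 these were 1487 of 13233, 953 of 13200, 1214 of 13282 and 1029 of 13355. For the interaction the number was 0 (0 to 1 when 1 library was left out) and with the block 3, or 3 with the length trend and 2 without wild-type line 2. Over all genes, 487 of 14164 passed with the block and the length trend, and 381 of 14423 without wild-type line 2.

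In Cdk8Δ/Δ lines the log2 fold change of Irs1 was -0.37 without the Senexin B library of line 2 and 2.45 without its DMSO library, that of Inpp4b was -0.043 without the Senexin B library of line 3 and 0.88 without its DMSO library, and that of Pik3r3 was 0.77 without the DMSO library of line 1 and -1.21 without its Senexin B library. The interaction of Igf1r was -0.79 without the wild-type DMSO library of line 1 and 1.87 without the Cdk8Δ/Δ DMSO library of line 3. The cause was not tested. The other genes recomputed under the alternatives (Igf1r and Pik3r5 between genotypes; Inppl1, Insr, Gab1, Foxo3, Pik3ip1 and Pik3r6 in wild-type lines; Pik3ip1 and Pik3cd in Cdk8Δ/Δ lines; Insr, Irs2, Foxo3 and Pik3ap1 for the interaction) kept their direction. Counts of under 30 per library limit Pik3cb, and Igf1r has 0 to 109.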
